A study of Rattus norvegicus with 32 samples.

Results

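The genes described here are 8 that are classically used as readouts of estrogen action in the rodent uterus: S100g, Ckb, Padi1, Padi2, Inhbb, Cdkn1a, Vegfa and Clu. They were found in the deposited count table by NCBI gene identifier. All 8 listed genes were among its 17327 genes, and all 8 passed the filter on low counts that left 13312 genes for testing. The RNA came from the uterus of Sprague-Dawley rats of the NCTR breeding colony, collected at PND365 (PND, postnatal day), in 32 libraries of 8 groups with 4 libraries each. Bisphenol A (BPA), a plastic monomer that binds estrogen receptors, was gavaged daily at doses of 2.5, 25, 250, 2500 or 25000 µg for each kg of body weight. The reference estrogen was ethinyl estradiol (EE2), the orally active estrogen of contraceptive pills, at daily doses of 0.05 or 0.5 µg for each kg. The control animals received the vehicle alone, carboxymethylcellulose at 0.3%. Dosing of the dams began on gestation day 6 and ended when labor began, and the pups were dosed directly from postnatal day 1, so exposure ran through development and adult life up to collection. The labels mention no surgery and name neither single animals, litters nor the stage of the estrous cycle. The p-values therefore measure the spread between these libraries only.

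Estrogen acts in the uterus mainly through estrogen receptor alpha, a nuclear receptor that binds short palindromic DNA elements or other promoter-bound factors and changes transcription of nearby genes. In the immature or ovariectomized rodent, a short estrogen treatment raises the calcium buffer gene S100g, the brain-type creatine kinase gene Ckb, the peptidylarginine deiminase genes, the inhibin beta B gene, the cyclin kinase inhibitor gene Cdkn1a and the angiogenic factor gene Vegfa, and lowers the secreted chaperone gene Clu. These responses were defined after acute treatment, whereas the animals here were dosed from before birth up to collection.

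The sequence before the transcription start is shown for the 3 genes with a RefSeq promoter entry that differed among the groups or in a comparison with control, since these are the windows in which a classical estrogen response element might be looked for. RefSeq promoters of assembly GRCr8 covered 6 of the 8 genes in 7 windows, with no entry for S100g and Clu. The 250 bases before the start are printed from 5′ to 3′ on the strand of the gene, with matches to 5 short motifs in capitals. The Ckb window is at chr6:136553465-136553714 on the minus strand, the Padi2 window at chr5:158491837-158492086 on the plus strand and the Cdkn1a window at chr20:7150682-7150931 on the plus strand.
Ckb: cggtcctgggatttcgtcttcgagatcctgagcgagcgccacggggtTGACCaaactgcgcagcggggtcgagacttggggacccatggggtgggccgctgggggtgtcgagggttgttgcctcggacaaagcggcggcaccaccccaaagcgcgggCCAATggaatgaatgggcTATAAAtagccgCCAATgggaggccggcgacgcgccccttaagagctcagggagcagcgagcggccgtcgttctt
Padi2: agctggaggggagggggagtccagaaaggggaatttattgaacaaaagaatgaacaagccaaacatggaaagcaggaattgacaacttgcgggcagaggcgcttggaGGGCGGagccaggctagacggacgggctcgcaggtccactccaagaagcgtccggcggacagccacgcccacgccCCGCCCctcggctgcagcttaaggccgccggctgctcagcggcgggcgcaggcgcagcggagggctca
Cdkn1a: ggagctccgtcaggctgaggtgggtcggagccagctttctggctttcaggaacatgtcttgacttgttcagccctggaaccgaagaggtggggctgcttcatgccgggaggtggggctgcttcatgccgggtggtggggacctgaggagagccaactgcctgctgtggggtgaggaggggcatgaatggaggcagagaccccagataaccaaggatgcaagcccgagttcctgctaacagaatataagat

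Both strands were searched for the full estrogen response element GGTCANNNTGACC, its half-site GGTCA (which lies within the full element), the TATA box TATAAA, the CCAAT box CCAAT and the GC box GGGCGG. Of the 33469 RefSeq windows of this length, 0.0239% held the full element, 35.4% the half-site, 12.9% the TATA box, 34.0% the CCAAT box and 30.5% the GC box. The full element was in 0 of the 6 genes' windows, and the half-site was in 2 of the 6, Ckb and Vegfa. In the Ckb window the half-site lay on the opposite strand, 203 to 199 bases before the start, the TATA box 75 to 70 bases before it, and CCAAT boxes at 93 to 89 and 63 to 59. The Padi2 window held 2 GC boxes, at 143 to 138 and at 68 to 63 on the opposite strand, and the Cdkn1a window held none of the 5 motifs. These matches describe the letters of the windows only.

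Total counts ran from 11777809 to 24661856 per library, and 3 counts at the lowest total equal 0.255 CPM, the count scaled to a common library size. Levels below are CPM on library sizes scaled by edgeR's TMM method. Of the 8 genes, 7 were well above that floor in every library, and Padi1 was not. BPA 2.5 libraries 1 and 3, BPA 250 library 1 and BPA 25000 library 3 stood apart, with median Spearman correlations with the other libraries of 0.912, 0.932, 0.943 and 0.943, against at least 0.953 in the rest. Markers of the tissue were present in every library: the summed level of 9 smooth muscle markers lay between 10533 and 34079 CPM and that of 13 luminal and glandular epithelium markers between 626 and 3045 CPM, with no marker of either list at 0. The 8 ciliated cell markers summed to 842 and 559 CPM in BPA 2.5 libraries 1 and 3, against 32.2 to 41.4 CPM in the controls. Their sum was also above the control range at EE2 0.05 (41.8 to 55.6 CPM), BPA 25 (74.0 to 160 CPM) and BPA 250 (50.9 to 94.2 CPM). At BPA 2500 it ran from 27.7 to 239 CPM. In bulk tissue, fewer cells of a type and less RNA per cell cannot be told apart.

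Each exposed group was compared with the same 4 control libraries, so the 7 comparisons are not independent of each other. S100g, Ckb and Padi2 were lower on average than in the controls in all 7 exposed groups. Inhbb was too, but at BPA 250 its log2 fold change was 0.0041 without library 3. Clu was higher on average in all 7 groups, but at BPA 250 its mean was 1.01 times that of the controls, and at BPA 25 its log2 fold change was -0.41 without library 3 and -0.11 in limma voom with sample weights. In edgeR's quasi-likelihood test with Benjamini-Hochberg adjustment over all tested genes, S100g fell at BPA 2.5, Ckb fell at BPA 25 and BPA 250, and Padi2 fell at BPA 250. None of the 8 genes rose in any of the 7 comparisons, and Padi1, Inhbb, Cdkn1a, Vegfa and Clu passed in none of them. The 4 calls held 1 of 8 genes at BPA 2.5, where 11.4% of all tested genes were called and 4.39% called lower, 1 of 8 at BPA 25 (1.92% and 0.969%), and 2 of 8 at BPA 250 (8.79% and 4.35%). The 1 call of 8 at BPA 2.5 is close to the share of all genes called at that dose.

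**Figure D1:**
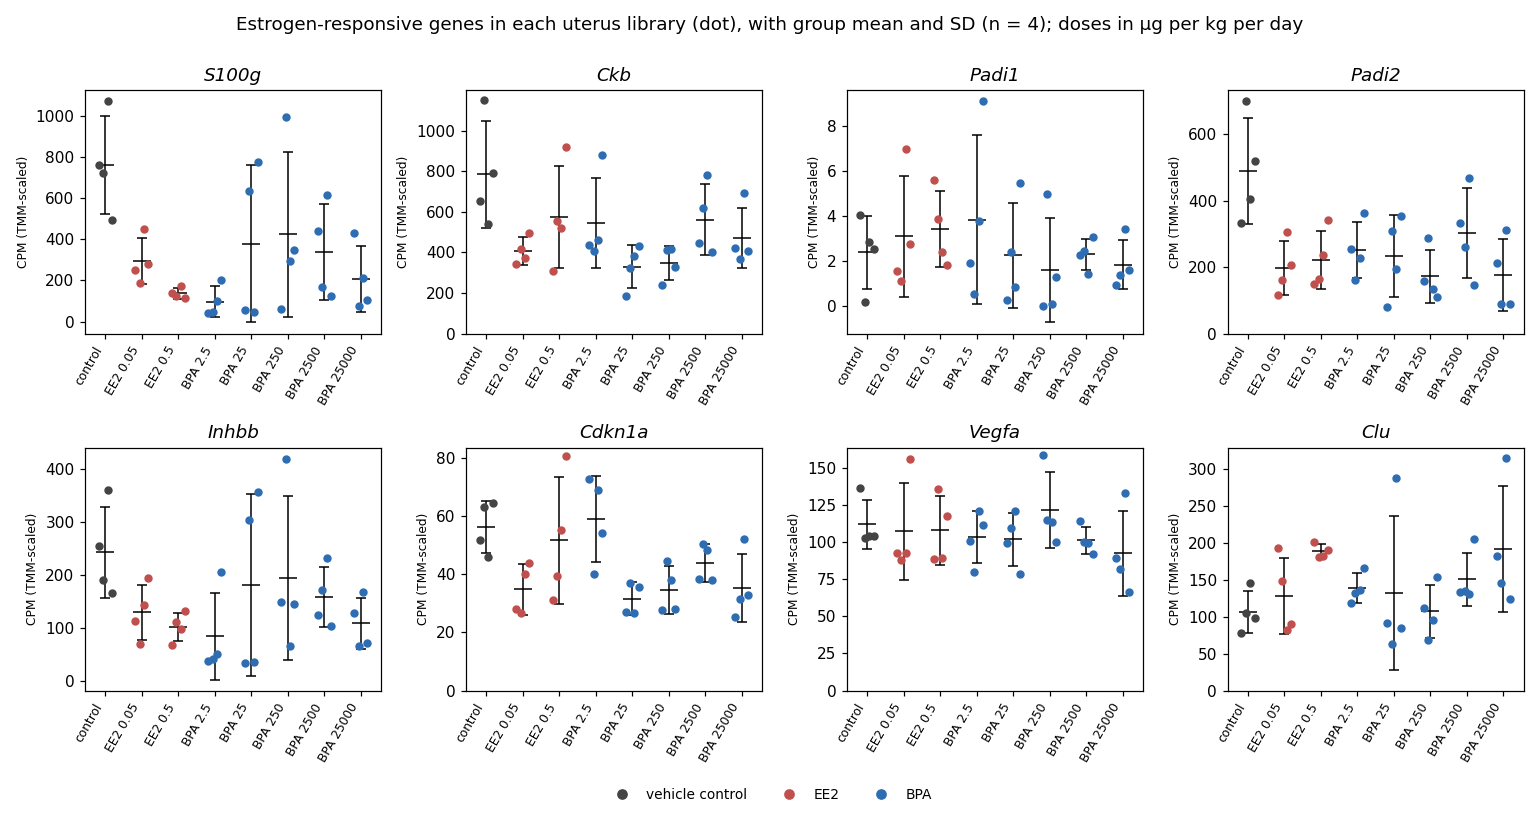
Level of each of the 8 genes in CPM on TMM-scaled library sizes (vertical axis, linear) in the 8 groups (horizontal axis, doses in µg per kg per day); each dot is 1 library, and bars are the mean ± SD of 4 libraries. All 28 exposed libraries of S100g except 4 lie below the lowest control, and the SD bar of Padi1 reaches below 0 where the spread exceeds the mean.

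S100g encodes calbindin-D9k, a small protein that buffers calcium in uterine muscle and epithelium and is among the most estrogen-responsive genes of the rat uterus. In the 4 control libraries it stood at 761, 721, 1068 and 493 CPM (761 ± 237, SD, n = 4). At BPA 2.5 it stood at 42.1, 44.9, 101 and 203 CPM (97.7 ± 75.2). Every BPA 2.5 library was lower than every control library, and the control mean was 7.78 times the BPA 2.5 mean. The log2 fold change was -2.96 (SE 0.79, adjusted p = 0.0163, edgeR quasi-likelihood test). Leaving out control library 3 (adjusted p = 0.0517) or BPA 2.5 library 1 (0.0670) ended the call, as did leaving out the 4 libraries that stood apart, 2 of which are in this group (log2 fold change -2.61, adjusted p = 0.145). All 8 ciliated cell markers rose in this comparison by edgeR, and their sums in the same 4 libraries were 842, 67.4, 559 and 34.9 CPM. Of 10 tested squamous epithelium markers, 3 rose (Krt5, Krt14 and Calml3, adjusted p = 0.0043, 0.0163 and 0.0041, edgeR), and the sum of the list was 51.8 to 69.8 CPM, against 11.7 to 27.8 CPM in the controls. The part of either cell type in the S100g result was not tested.

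The EE2 groups were also below the controls in S100g. At EE2 0.05 the libraries stood at 252, 188, 451 and 281 CPM (293 ± 112), and at EE2 0.5 at 139, 122, 174 and 114 CPM (137 ± 26.6). The ranges of both groups lay wholly below the control range, and EE2 0.5 was the tightest of all groups. Neither difference passed in edgeR, with a log2 fold change of -1.38 (SE 0.75, adjusted p = 0.488) at EE2 0.05 and of -2.47 (SE 0.78, adjusted p = 0.111) at EE2 0.5. DESeq2, voom and a fit of only the groups compared each called S100g lower at EE2 0.5 (adjusted p = 0.0395, 0.0253 and 0.0026). The squamous markers Krt5, Krt14 and Calml3 rose in both EE2 groups by edgeR (adjusted p between 0.0083 and 0.0398), and they were 3 of the 6 genes called at EE2 0.05. Krt5, a basal keratin gene, averaged 0.0605 ± 0.0815 CPM in the controls, 92.6 ± 126 CPM at EE2 0.05 and 97.6 ± 71.1 CPM at EE2 0.5. At EE2 0.05 its libraries stood at 0, 0.293, 266 and 104 CPM. The squamous list summed to 14.8, 7.91, 652 and 243 CPM in the EE2 0.05 libraries and to 151, 416, 54.6 and 319 CPM in the EE2 0.5 libraries, and up to 9 of its 11 genes were at 0 in a library. Its part in the S100g levels was not tested.

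In the other BPA groups S100g was split between libraries. BPA 25 held 2 low libraries at 56.6 and 45.2 CPM and 2 at 636 and 773 CPM, within the control range. BPA 250 ran from 62.4 CPM in library 1 through 293 and 348 CPM to 994 CPM in library 2. BPA 2500 stood at 439, 167, 616 and 126 CPM, and BPA 25000 at 428, 77.3, 214 and 105 CPM. Only at BPA 25000 among these 4 doses was every library below every control, with a log2 fold change of -1.88 (SE 0.76, adjusted p = 0.166, edgeR), which voom called (adjusted p = 7.8e-04). Of the 28 exposed libraries, 24 were below all 4 controls. The edgeR test for any difference among the 8 groups gave an adjusted p of 0.0464 for S100g, in a test that called 31.7% of all genes. That call was lost on leaving out any of 21 of the 32 libraries, with adjusted p-values of 0.0519 to 0.104.

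Ckb encodes the brain-type creatine kinase, which regenerates ATP from phosphocreatine and was among the earliest estrogen-induced proteins described in rat uterus. The controls stood at 653, 1149, 540 and 791 CPM (783 ± 265). BPA 25 stood at 184, 323, 379 and 431 CPM (329 ± 107), and BPA 250 at 238, 409, 414 and 326 CPM (347 ± 83.1). All 8 of these libraries were below the lowest control. The control mean was 2.38 times the BPA 25 mean and 2.26 times the BPA 250 mean.

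The log2 fold change of Ckb was -1.25 at BPA 25 (SE 0.32, adjusted p = 0.0428) and -1.18 at BPA 250 (SE 0.32, adjusted p = 0.0250), both by edgeR's quasi-likelihood test. Leaving out any 1 control library ended the BPA 25 call (adjusted p between 0.0615 and 0.117), as did leaving out BPA 25 library 1, 2 or 3 (0.168, 0.0849 and 0.0676) or any of 6 libraries of other groups (0.0510 to 0.0540). The BPA 250 call ended without control library 2 or 4 (0.0937 and 0.0606), without BPA 250 library 1 or 4 (0.101 and 0.0649), and without the 4 libraries that stood apart (log2 fold change -1.02, adjusted p = 0.0609). Control library 2, at 1149 CPM, was the highest of all 32 libraries, and without it the log2 fold changes were -0.98 and -0.91.

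Elsewhere Ckb was lower by less. EE2 0.05 stood at 342, 414, 371 and 497 CPM (406 ± 67.3), below all controls, with a log2 fold change of -0.95 (SE 0.32, adjusted p = 0.254, edgeR). EE2 0.5, at 308, 552, 520 and 917 CPM (574 ± 253), overlapped the controls. BPA 2.5 had 3 libraries between 405 and 460 CPM and library 4 at 878 CPM, and BPA 25000 had 3 between 367 and 419 CPM and library 3 at 692 CPM. BPA 2500, at 447, 617, 783 and 400 CPM (562 ± 174), overlapped the controls. Voom called Ckb lower at EE2 0.05, BPA 2.5 and BPA 25000 too (adjusted p = 0.0068, 0.0434 and 0.0013). The test for any difference among the groups gave an adjusted p of 0.0277 for Ckb (edgeR). It was lost without control library 2 (0.107) or 4 (0.0543), BPA 25 library 2 (0.0589) or BPA 250 library 1 (0.0577).

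Markers of smooth muscle were compared with Ckb. Acta2, 1 of them, stood at 7367 to 10709 CPM at BPA 250, within its control range of 6348 to 14747 CPM. At BPA 25 it stood at 5950 to 7471 CPM. The 9 markers summed to 17719 to 34079 CPM in the controls, 12622 to 18209 CPM at BPA 25 and 16522 to 20963 CPM at BPA 250, and 1 of the 9, Smtn, fell at both doses by edgeR (log2 fold change -1.08 and -0.83, adjusted p = 0.0393 and 0.0425). Over the 32 libraries, Ckb correlated with this sum on the log2 scale (Pearson's r = 0.72, Spearman's rho = 0.71, adjusted permutation p = 0.00015 and 0.00024). The share of smooth muscle in the fall of Ckb was not tested.

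Padi1 and Padi2 encode peptidylarginine deiminases, calcium-dependent enzymes that turn arginine into citrulline in proteins. Padi2 is the form of smooth muscle, glia and secretory epithelia, and Padi1 that of epidermis and uterine epithelium. Padi2 stood at 333, 699, 403 and 520 CPM (489 ± 160) in the controls and at 156, 288, 133 and 110 CPM (172 ± 79.7) at BPA 250. All 4 BPA 250 libraries were below all controls, with a control mean 2.84 times the BPA 250 mean. The log2 fold change was -1.51 (SE 0.45, adjusted p = 0.0376, edgeR). It did not pass without control library 2, 3 or 4 (adjusted p = 0.106, 0.0569 and 0.0824), without BPA 250 library 1, 3 or 4 (0.109, 0.0850 and 0.106), and without the 4 libraries that stood apart (log2 fold change -1.44, adjusted p = 0.0741).

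Tissue markers moved at BPA 250 as well. Of 9 stroma markers, 2 rose and 1 fell by edgeR: Dcn, the decorin gene, rose from 3798 ± 936 to 11330 ± 830 CPM and Lum from 81.2 ± 31.1 to 248 ± 95.6 CPM (adjusted p = 0.0186 and 0.0297), and Twist2 fell from 54.4 ± 20.95 to 31.1 ± 5.20 CPM (adjusted p = 0.0440). The list summed to 26919 to 30188 CPM at BPA 250 and to 10249 to 29463 CPM in the controls, with none of its genes at 0. Smtn of the smooth muscle list fell, as given for Ckb. Over the 32 libraries Padi2 was related to the smooth muscle sum (r = 0.45, rho = 0.46, adjusted permutation p = 0.0331 and 0.0311) and showed little relation to the stroma sum (r = -0.07, rho = -0.05, adjusted permutation p = 0.767 and 0.844). Without the 2 libraries farthest from the Padi2 median, r with smooth muscle was 0.32, and it was 0.36 after removal of the group means. The part of these tissues in the fall of Padi2 was not tested.

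At BPA 25000 Padi2 was as low as at BPA 250, at 213, 89.4, 313 and 87.8 CPM (176 ± 109), all below the controls, with a log2 fold change of -1.48 (SE 0.45, adjusted p = 0.0723, edgeR). Without library 3 of that group, one of the libraries that stood apart, it passed (log2 fold change -1.91, adjusted p = 0.0271), as it did in DESeq2 and voom (0.0197 and 2.3e-05). EE2 0.05, at 116, 160, 305 and 207 CPM (197 ± 81.1), was wholly below the controls, and EE2 0.5, at 148, 165, 236 and 340 CPM (222 ± 87.3), overlapped them by 1 library. The log2 fold changes of EE2 0.05 and EE2 0.5 were -1.31 and -1.14 (adjusted p = 0.261 and 0.204, edgeR), and voom called both (0.0064 and 0.0272). BPA 2.5, BPA 25 and BPA 2500 averaged 251 ± 84.6, 234 ± 123 and 302 ± 135 CPM. In all, 23 of the 28 exposed libraries were below every control, and the test for any group difference gave an adjusted p of 0.0678 (edgeR).

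Padi1 was near the limit of detection. It ranged from 0 to 9.11 CPM, which is 0 to 143 counts per library, and the controls alone ran from 0.15 to 4.05 CPM (2.38 ± 1.63). Group means lay between 1.59 and 3.84 CPM, 4 of 7 below and 3 above the control mean, and all groups overlapped the controls. The standard errors of its log2 fold changes were 0.96 to 0.97, so a difference of the size seen in Padi2 was not detectable here. Padi1 followed the 13 epithelium markers over the 32 libraries (r = 0.79, rho = 0.80, adjusted permutation p = 0.00015 for each). Padi2 was also related to these markers (r = 0.47, rho = 0.51, adjusted permutation p = 0.0294 and 0.016), and the difference between the r values was not tested.

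Inhbb encodes the beta B subunit that forms activin B as a dimer and inhibin B with the alpha subunit. The controls stood at 255, 191, 361 and 167 CPM (243 ± 86.7). BPA 2.5 stood at 37.9, 42.7, 51.4 and 206 CPM (84.6 ± 81.3), where 3 libraries were low together and library 4 lay within the control range. The log2 fold change was -1.52 (SE 0.63, adjusted p = 0.114, edgeR), and without library 4 it was -2.47 (adjusted p = 0.0128). EE2 0.5, at 69.2, 113, 98.4 and 132 CPM (103 ± 26.4), was the only group whose range lay wholly below the controls (log2 fold change -1.24, SE 0.62, adjusted p = 0.340, edgeR).

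At BPA 25 Inhbb split as S100g did: libraries 1 and 3 stood at 33.7 and 35.8 CPM, and libraries 2 and 4 at 304 and 357 CPM. BPA 250 stood at 150, 420, 65.8 and 145 CPM, with library 2 above every control, as it was the highest of its group in S100g. EE2 0.05, BPA 2500 and BPA 25000 averaged 131 ± 51.9, 159 ± 57.1 and 109 ± 48.5 CPM. The control mean of Inhbb was 1.24 to 2.88 times the mean of each exposed group, with no call in edgeR. Voom called Inhbb lower at BPA 2.5 and BPA 25000 (adjusted p = 0.0081 and 0.0122), and a fit of only the groups compared called it lower at EE2 0.5 (0.0441). Inhbb was related to the epithelium sum (r = 0.46, rho = 0.45, adjusted permutation p = 0.0315 and 0.0349) and to the smooth muscle sum (r = 0.47, rho = 0.49, adjusted permutation p = 0.0294 and 0.0215), and their part in its levels was not tested. Without the 2 libraries farthest from the Inhbb median these r values were 0.33 and 0.41, and after removal of the group means 0.57 and 0.37.

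**Figure D2:**
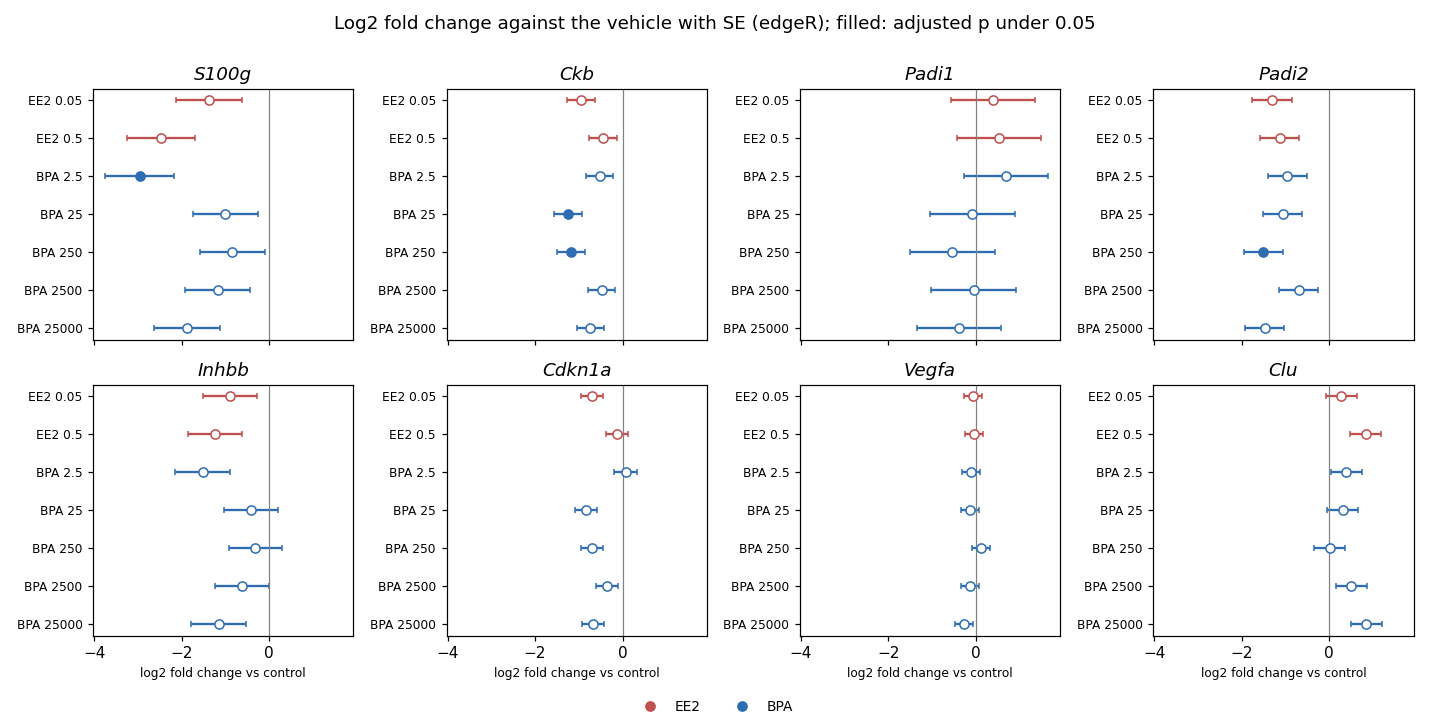
Log2 fold change of each gene against the vehicle control (horizontal axis) with its standard error in each exposed group (vertical axis), from edgeR's quasi-likelihood fit; filled points have an adjusted p under 0.05. The 4 filled points are S100g at BPA 2.5 (-2.96), Ckb at BPA 25 (-1.25) and BPA 250 (-1.18), and Padi2 at BPA 250 (-1.51).

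Cdkn1a encodes p21, an inhibitor of cyclin-dependent kinases that holds back the cell cycle. The controls were tight, at 51.6, 62.9, 45.8 and 64.6 CPM (56.2 ± 9.01). EE2 0.05 stood at 28, 26.7, 40.2 and 44.0 CPM (34.7 ± 8.64), BPA 25 at 26.8, 37.1, 26.6 and 35.6 CPM (31.5 ± 5.61), and BPA 250 at 27.7, 44.5, 37.9 and 27.9 CPM (34.5 ± 8.21). All 12 of these libraries were below every control. The log2 fold changes were -0.69, -0.83 and -0.71 with adjusted p-values of 0.298, 0.0637 and 0.0749 in edgeR. BPA 2.5, at 72.6, 40.1, 69.0 and 54.0 CPM (58.9 ± 14.9), and EE2 0.5, at 31.2, 39.3, 55.3 and 80.6 CPM (51.6 ± 21.8), spanned the controls on both sides. BPA 25000, at 25.2, 31.3, 52.2 and 32.8 CPM (35.4 ± 11.7), had 3 libraries below every control, with a log2 fold change of -0.67 (SE 0.26, adjusted p = 0.145, edgeR). BPA 2500 averaged 43.7 ± 6.55 CPM and overlapped the controls.

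Cdkn1a did not pass against control at any single dose in edgeR with all libraries, while the test for any difference among the 8 groups gave it the smallest adjusted p of the 8 genes, 0.0176 (edgeR). That call was lost without BPA 2.5 library 1 (0.0524) or library 3 (0.0502), both among the libraries that stood apart, and held without all 4 such libraries together. At BPA 25, DESeq2, a fit of only the groups compared, and the fit without the 4 libraries that stood apart each called Cdkn1a lower (adjusted p = 0.0349, 0.0273 and 0.0302), as did voom (0.0067) and edgeR without BPA 2.5 library 2 (0.0452) or BPA 25000 library 3 (0.0488). At BPA 250 the fit of only the groups compared (0.0472), voom (0.0113) and edgeR without library 2 of that group (0.0418) called it lower. At BPA 25000 voom (4.3e-04), the fit without the 4 libraries (0.0386) and the fit without BPA 25000 library 3 (0.0482) did so, and at EE2 0.05 voom alone among the alternatives run (0.0059). Cdkn1a was related to the epithelium sum (r = 0.50, rho = 0.53, adjusted permutation p = 0.0171 and 0.0131), whose part in its levels was not tested.

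Vegfa encodes the main vascular endothelial growth factor, which raises vessel permeability in the uterus within hours of estrogen. It was the least variable of the 8 genes. The controls stood at 136, 103, 104 and 104 CPM (112 ± 16.3), and the group means lay between 0.827 and 1.09 times the control mean. The lowest group was BPA 25000, at 89.0, 81.9, 133 and 66.4 CPM (92.5 ± 28.5), and the highest BPA 250, at 159, 115, 114 and 100 CPM (122 ± 25.6). All 7 groups overlapped the controls. The 95% intervals of the 7 log2 fold changes ran from -0.70 at the lowest to 0.55 at the highest. EdgeR and DESeq2 called no difference in Vegfa, and voom called it lower at BPA 25000 (log2 fold change -0.51, adjusted p = 0.0081) and different among the groups (adjusted p = 0.0317).

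Clu encodes clusterin, a secreted chaperone that rises in regressing epithelium and that estrogen lowers in the castrate uterus. The controls stood at 77.7, 105, 145 and 98.3 CPM (107 ± 28.3). EE2 0.5 stood at 201, 182, 182 and 191 CPM (189 ± 9.08), and all 4 libraries were above every control. The log2 fold change was 0.83 (SE 0.36, adjusted p = 0.252, edgeR), and a fit of only the groups compared called it (adjusted p = 0.0434). Ranges that were apart and higher were found for 1 of the 8 genes in this comparison and for 6.8% of all tested genes. BPA 25000, at 182, 145, 315 and 125 CPM (192 ± 85.6), had the highest mean, with a log2 fold change of 0.85 (SE 0.36, adjusted p = 0.183, edgeR). Its library 3, at 315 CPM, is one of the libraries that stood apart. With 1 of the 8 libraries compared left out, the log2 fold change ran from 0.50 to 1.04. BPA 250 was level with the controls at 108 ± 36.1 CPM, and 12 of the 28 exposed libraries were above every control.

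Counted per comparison, groups that did not overlap and were lower than control held 4 of the 8 genes at EE2 0.05 (S100g, Ckb, Padi2 and Cdkn1a), against 5.66% of all tested genes. They held 2 of 8 at EE2 0.5 (S100g and Inhbb), against 6.02%, 1 of 8 at BPA 2.5 (S100g), against 5.72%, and 2 of 8 at BPA 25 (Ckb and Cdkn1a), against 9.79%. At BPA 250 they held 3 of 8 (Ckb, Padi2 and Cdkn1a), against 9.77%, at BPA 2500 0 of 8, against 3.75%, and at BPA 25000 2 of 8 (S100g and Padi2), against 7.14%. The median log2 fold change of the 8 genes was -0.80, -0.29, -0.32, -0.62, -0.62, -0.42 and -0.70 at EE2 0.05 and 0.5 and at BPA 2.5, 25, 250, 2500 and 25000, where the median over all tested genes lay between -0.02 and 0.05. The 8 genes were chosen with earlier results of these data known. Ckb, Padi2 and Cdkn1a are also correlated with each other (r = 0.67 to 0.75), so they are not separate observations. These counts and medians therefore cannot show an excess.

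In 4 comparisons edgeR called 0 of the 8 genes. At EE2 0.05, where 0.0451% of all genes were called, 3 of the 8 and 11.5% of all genes had an unadjusted p under 0.05, DESeq2 called 0 of the 8 and 65 genes in all, and limma voom with sample weights 3 of the 8 and 1375 in all. At EE2 0.5, where 0.556% were called, 3 of the 8 and 15.6% of all had an unadjusted p under 0.05, DESeq2 called 1 of the 8 and 442 genes in all, and voom 2 and 1221. At BPA 2500, where 0% of genes were called, 0 of the 8 and 10.2% of all had an unadjusted p under 0.05. DESeq2 called 0 of the 8 and 87 genes in all there, and voom 0 of the 8 and 0 in all. At BPA 25000, where 2.32% were called, 5 of the 8 and 19.3% of all had an unadjusted p under 0.05, DESeq2 called 1 of the 8 and 770 genes in all, and voom 6 and 4116, against 309 in all by edgeR.

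Averaged over the 5 BPA doses, Ckb and Padi2 came closest to passing against control, with log2 fold changes of -0.83 (SE 0.23, adjusted p = 0.0557) and -1.14 (SE 0.31, adjusted p = 0.0563) in edgeR. S100g followed with -1.57 (SE 0.51, adjusted p = 0.0922). EdgeR called 0 of the 8 genes and 1.34% of all genes in this comparison, with 4 of the 8 and 18.7% of all at an unadjusted p under 0.05, and DESeq2 called 2 of the 8 (776 genes in all) and voom 4 (2532). Averaged over both EE2 doses, the log2 fold changes of the same genes were -0.70 for Ckb, -1.22 for Padi2 and -1.92 for S100g (adjusted p = 0.202, 0.118 and 0.132, edgeR). There too edgeR called 0 of the 8 genes and 0.0676% of all genes, with 4 of the 8 and 15% of all at an unadjusted p under 0.05, against 1 by DESeq2 (333 genes in all) and 4 by voom (1856).

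The other contrasts compared the agents and the doses with each other. Between the BPA mean and the EE2 mean, edgeR called 0 of the 8 and 0.841% of all genes, with 0 of the 8 and 14.3% of all at an unadjusted p under 0.05. DESeq2 and voom each called 0 of the 8 there, and 383 and 510 genes in all. The 95% interval of that log2 difference, BPA over EE2, was -0.56 to 1.26 for S100g, -0.51 to 0.24 for Ckb and -0.45 to 0.62 for Padi2. Between EE2 0.5 and EE2 0.05, 0 of the 8 and 0.015% of all genes were called. An unadjusted p under 0.05 was found for 9.01% of all genes and for 1 of the 8, Cdkn1a, whose mean was higher at EE2 0.5 (log2 difference 0.57, SE 0.25, adjusted p = 0.522, edgeR). Between these 2 doses DESeq2 and voom each called 0 of the 8, and 14 and 70 genes in all. A linear trend over log10 BPA dose was called for 4.62% of all genes and for 0 of the 8, with 0 of the 8 and 22.8% of all at an unadjusted p under 0.05. DESeq2 called a trend for 0 of the 8 (1073 genes in all) and voom for 2 (2703). When each gene's 8 groups were put in order of their means, all 7 pairs of neighbours overlapped in range for each of the 8 genes.

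The 8 genes were then compared with each other over the 32 libraries, as 28 pairs in a family of 60 relations that also held 32 relations with marker sums. Of the pairs, 7 had an adjusted permutation p under 0.05 for Pearson's r, 6 positive and 1 negative. S100g and Inhbb were the closest pair (r = 0.84, rho = 0.81, permutation p = 1e-05, the smallest that 100000 permutations can give, adjusted p = 0.00015 for each). The relation was r = 0.81 without the 2 libraries farthest from the median of S100g and r = 0.79 after removal of the group means. The split libraries of BPA 25 and the high BPA 250 library 2, described above for each gene, are part of this relation.

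A second set of relations joined Ckb, Padi2 and Cdkn1a. Ckb correlated with Padi2 (r = 0.75, rho = 0.75, adjusted permutation p = 0.00015 for each) and with Cdkn1a (r = 0.75, rho = 0.77, adjusted permutation p = 0.00024 and 0.00015). The values of r were 0.65 and 0.72 without the 2 farthest libraries, and 0.72 and 0.64 within groups. Padi2 correlated with Cdkn1a (r = 0.67, rho = 0.67, adjusted permutation p = 0.0004 and 0.0006). Padi2 was also related to Inhbb (r = 0.61, rho = 0.67) and to S100g (r = 0.60, rho = 0.60), with adjusted permutation p-values of at most 0.0028. S100g and Cdkn1a showed little relation (r = 0.13, rho = 0.15, adjusted permutation p = 0.585 and 0.516).

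**Figure D3:**
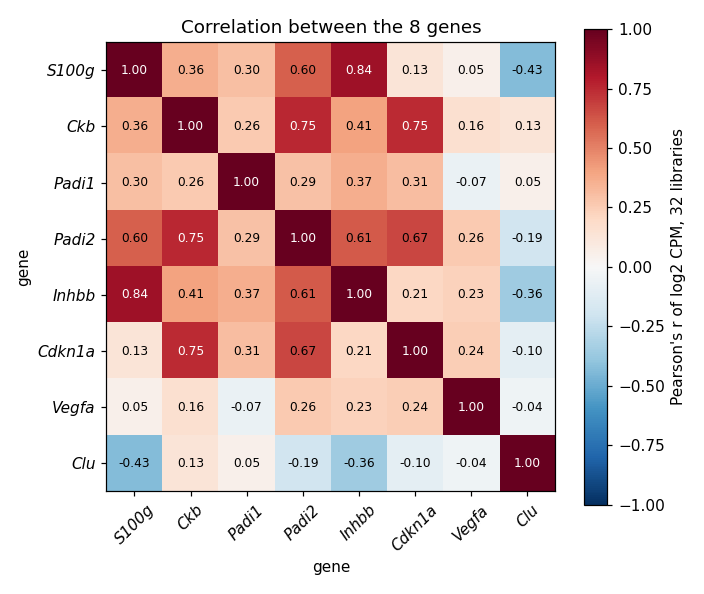
Pearson's r between the log2 CPM of the 8 genes over the 32 libraries, with genes on both axes and r as colour and number. S100g and Inhbb (0.84) and the trio of Ckb, Padi2 and Cdkn1a (0.67 to 0.75) have the highest values, and Vegfa and Clu have no value above 0.26 with any other gene.

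Of the 32 relations with marker sums, 12 passed for r. Of these, the 3 with smooth muscle (Ckb, Padi2 and Inhbb) and the 4 with epithelium (Padi1, Padi2, Inhbb and Cdkn1a) were given above, and the other 5 were with fat cell markers. Cdkn1a with smooth muscle passed for rho but not for r (r = 0.38, rho = 0.46, adjusted permutation p = 0.0735 and 0.0307). The negative pair of genes was S100g and Clu (r = -0.43, rho = -0.40, adjusted permutation p = 0.0443 and 0.0633). It was -0.51 without the 2 farthest libraries and -0.35 within groups, and it passed for r but not for rho. The summed level of 7 fat cell markers, which ran from 87.9 to 1521 CPM with up to 2 of the 7 at 0 in a library, was negatively related to Ckb, Padi1, Padi2 and Inhbb (r = -0.52, -0.54, -0.50 and -0.53, rho = -0.50, -0.60, -0.51 and -0.51, adjusted permutation p at most 0.0174). In S100g it passed for r but not for rho (r = -0.42, rho = -0.37, adjusted permutation p = 0.0479 and 0.0813). Fat markers summed to 88 to 621 CPM in the controls and 419 to 1521 CPM at BPA 25. Of the 7, only Lpl was called at BPA 25, rising from 84.9 ± 22.7 to 522 ± 502 CPM (adjusted p = 0.0393, edgeR). At BPA 250 Lpl was again the only call, at 479 ± 220 CPM (adjusted p = 0.0181, edgeR). Adipoq, a fat cell gene, stood at 212 to 383 CPM at BPA 25, within its control range of 8.97 to 497 CPM. The part of Lpl in the relations with this sum was not tested. Nor was the part of fat markers in the lower levels of Ckb and Padi2.

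**Figure D4:**
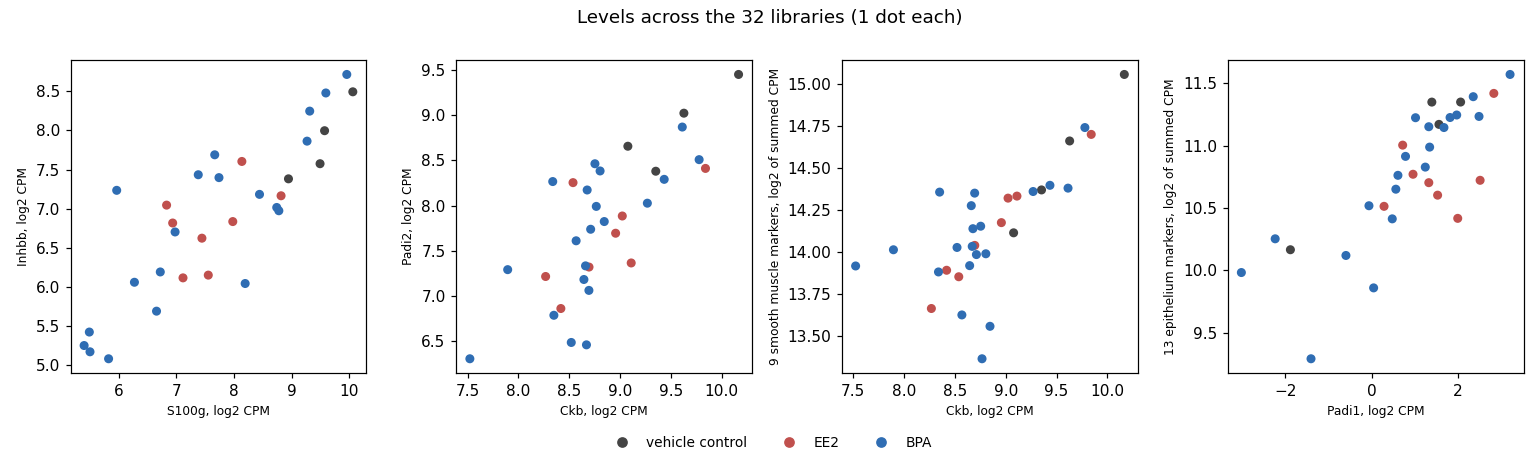
Log2 CPM in each of the 32 libraries (1 dot each, coloured by agent): Inhbb against S100g, Padi2 against Ckb, the sum of 9 smooth muscle markers against Ckb, and the sum of 13 epithelium markers against Padi1. Pearson's r is 0.84, 0.75, 0.72 and 0.79 in that order, and control libraries lie at the upper end of the first pair.

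Among 11400 other genes, those most like each of the 8 were named by Pearson's r of log2 CPM over the 32 libraries, a description with no test. The nearest to S100g were Ccl7 (0.90), a chemokine gene, Rad18 (0.87), a DNA repair gene, and Pcp4 (0.87). Ckb was nearest to Arhgef25 (0.88), Kcnh2 (0.87), a potassium channel gene, and Unc45a (0.87), a myosin chaperone gene. Padi2 was nearest to the P-cadherin gene Cdh3 (0.89), Hsd11b2 (0.86), which inactivates glucocorticoids, and Kif5b (0.86). Cbln1 (0.90) and Plk2 (0.89) were near to Inhbb. Padi1 was nearest to Apobr (0.87), Inava (0.87) and Prss32 (0.85), and Cdkn1a to Nherf1 (0.81), Gja5 (0.79) and Kcnk5 (0.77). Vegfa had Qtrt2 (0.78), Srsf2 (0.76) and G3bp1 (0.73), and Clu, with the lowest values, Lrrfip2 (0.70), Galt (0.70) and Fam89b (0.70).

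Of 25 other genes known to respond to estrogen, 3 were called in any of the 7 comparisons with control. This count and those of the gene lists below pool the 7 comparisons. In single comparisons with control, 0% to 11.4% of all tested genes were called. The share of all genes called in any of the 7 was not counted, so none of these counts shows an excess. Igf1, a growth factor gene through which estrogen acts on uterine epithelium, fell from 441 ± 198 CPM to 105 ± 20.3 CPM at BPA 2.5 (-2.07 on the log2 scale, SE 0.43, adjusted p = 0.0039) and to 120 ± 66.3 CPM at BPA 25000 (-1.88, SE 0.42, adjusted p = 0.0245, edgeR). The BPA 2.5 call of Igf1 held without each of its own and the control libraries, 8 of 8, and not without the 4 libraries that stood apart (adjusted p = 0.0614). Pgr, the progesterone receptor gene, fell at BPA 2.5 (-1.08, adjusted p = 0.0450, edgeR), a gene chosen after its values were seen. That call was lost without any of 7 of the 8 libraries compared and without the 4 that stood apart (-0.80, adjusted p = 0.341). Trh, a hypothalamic peptide gene, rose at BPA 250 from 0.407 ± 0.478 to 6.56 ± 11.3 CPM, a call lost without any of 5 of the 8 libraries compared. The median log2 fold change of the 25 genes lay between -0.35 and -0.01 in the 7 comparisons.

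Around S100g, 4 of 12 tested genes of calcium entry and buffering were called. At BPA 2.5, where S100g fell, Calb1, the gene of the larger calbindin-D28k, fell from 5.61 ± 6.41 to 0.677 ± 0.479 CPM (log2 fold change -3.04, adjusted p = 0.0340), and S100a10 fell from 166 ± 32.8 to 98.2 ± 15.3 CPM (-0.76, adjusted p = 0.0208, edgeR). Calb1 also fell at BPA 25 (-4.03, adjusted p = 0.0393). Slc8a1, a sodium-calcium exchanger gene, rose at BPA 250 from 217 ± 39.3 to 378 ± 65.8 CPM (0.80, adjusted p = 0.0306, edgeR).

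Around Ckb, 1 of 7 genes of creatine synthesis, uptake and kinases was called. Gatm, which makes the creatine precursor, rose at BPA 250 from 14.9 ± 4.37 to 57.9 ± 31.6 CPM (1.96 on the log2 scale, SE 0.36, adjusted p = 0.0053, edgeR), in the group where Ckb fell. This call held without each of the 8 libraries compared and without the 4 that stood apart. Of the 4 tested genes of the deiminases and their substrates, Krt10, an epidermal keratin and substrate of these enzymes, rose at BPA 2.5 from 2.77 ± 0.718 to 7.05 ± 2.82 CPM (1.34, adjusted p = 0.0186, edgeR). The call was lost without any of 4 of the 8 libraries compared and without the 4 that stood apart (0.74, adjusted p = 0.338). The squamous markers that rose at this dose are given under S100g, and their part in the Krt10 result was not tested.

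Around Inhbb, 2 of 13 activin and inhibin genes were called, both at BPA 2.5, where 3 of 4 libraries had low Inhbb. Fst, which encodes the activin antagonist follistatin, rose from 8.41 ± 3.06 to 25.9 ± 9.52 CPM (log2 fold change 1.62, adjusted p = 0.0402), and Acvr1b, a type I activin receptor gene, from 21.6 ± 3.18 to 37.7 ± 10.8 CPM (0.80, adjusted p = 0.0093, edgeR). Neither held without the 4 libraries that stood apart (adjusted p = 0.317 and 0.256).

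Around Cdkn1a, 4 of 15 genes of cell cycle inhibition and the DNA damage response were called, all at BPA 250, 2 in each direction. Cdkn1b, which encodes the related inhibitor p27, rose from 184 ± 25.4 to 330 ± 41.4 CPM (log2 fold change 0.84, adjusted p = 0.0197, edgeR). The stress response genes Phlda3 and Sesn1 fell (-0.96, adjusted p = 0.0223) and rose (1.08, adjusted p = 0.0485), respectively, both chosen after their values were seen.

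Around Vegfa, 3 of 18 genes of vascular growth factors, their receptors and hypoxia were called, all of them higher. Vegfd, which encodes a ligand of the lymphatic VEGF receptor and was chosen after its values were seen, rose from 3.77 ± 2.67 CPM to 18.8 ± 11.7 at BPA 2.5, 27.3 ± 24.3 at BPA 25, 23.8 ± 10.9 at BPA 250 and 18.5 ± 10.4 at BPA 25000. Its log2 fold changes there were 2.31, 2.84, 2.64 and 2.29 (adjusted p = 0.0153, 0.0293, 0.0134 and 0.0450, edgeR). All 4 calls held without the 4 libraries that stood apart, and the BPA 250 call also held without each of the 8 libraries compared. Ndrg1, a hypoxia-induced gene, rose at BPA 2.5, 250 and 25000 (0.88, 0.86 and 0.91, adjusted p at most 0.0155), and Bnip3, a mitophagy gene induced by hypoxia, rose at BPA 250 (1.42, adjusted p = 0.0126, edgeR).

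Around Clu, 4 of 7 genes of clusterin receptors and other extracellular chaperones were called in at least 1 of the 7 comparisons. Of all tested genes, 2.32% were called at BPA 25000 and 8.79% at BPA 250. At BPA 25000, where Clu had its highest mean, Apoe rose from 144 ± 23.1 to 363 ± 181 CPM (log2 fold change 1.33, adjusted p = 0.0314), Serping1, a complement inhibitor gene, rose from 117 ± 21.3 to 294 ± 155 CPM (1.32, adjusted p = 0.0303), and Vldlr, a receptor gene, fell from 416 ± 62.6 to 197 ± 56.3 CPM (-1.08, adjusted p = 0.0426, edgeR). The haptoglobin gene Hp fell at BPA 250 (-1.99, adjusted p = 0.0369). Of the 29 calls in these 8 gene lists, 5 held without each of the 8 libraries compared, namely Igf1 and Ndrg1 at BPA 2.5 and Gatm, Vegfd and Bnip3 at BPA 250. Besides those named above, the calls of Calb1 and S100a10 at BPA 2.5, Phlda3 and Hp at BPA 250 and Vldlr at BPA 25000 were lost without the 4 libraries that stood apart (adjusted p = 0.183, 0.0732, 0.0599, 0.0887 and 0.0617).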

How the data were processed

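RNA of 32 rat uterus libraries was sequenced by Illumina protocols after extraction with a kit for lipid-rich tissue, per the labels' protocols. The authors deposited whole-number counts of reads per gene. Per the submitters' processing notes, bcl2fastq, TopHat, edgeR and build rn5 were used. Their versions and the gene annotation, like any strand setting, were not given in the sources used here, so reads of overlapping or antisense genes cannot be told apart. Identifiers were matched to symbols and promoters through RefSeq tables of GRCr8 (17167 genes matched, 160 did not), for names and sequences only.

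The counts were filtered by filterByExpr of edgeR 4.0.16 in R 4.3.3 (minimum count 10, minimum total 15) and scaled by TMM. All 8 groups entered 1 quasi-likelihood fit, each with its own mean (24 residual degrees of freedom), with Benjamini-Hochberg adjustment over 13312 genes and a threshold of 0.05. SE is the log2 fold change divided by the root of its F value, and intervals use Student's t with the fit's total degrees of freedom. Log2 CPM used a prior count of 2. Permutation tests were two-sided with 100000 permutations, adjusted over 60 relations. They shuffled the 32 libraries without regard to group, so shared differences between groups enter their p-values. Values of r after removal of the group means have no p-value. Alternatives used DESeq2 1.42.0 (size factors, and its own test), limma 3.58.1 voom, other filters (none, or 1 CPM in 16 libraries), robust spread, only the groups compared, and each library left out. The fit without 4 libraries that stood apart was added after seeing the data.

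The 8 genes, the other gene lists and the tests were chosen with earlier results of these data known. All 8 genes are named; from each list, at most the 4 called genes with the smallest p for any group difference; and the 3 genes most like each of the 8, among genes whose log2 CPM averaged 1 or more. Some genes that these rules pick are not reported here. The steps were tested on simulated counts.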

Additional observations from a re-analysis of the deposited data

Results flagged for a closer look

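In each group of 4 libraries, a library was listed when its gap to the nearest other library made up more of the group's range than Dixon's 95% critical value for 4 samples. Chance lists about 1 in 20 groups where values are normal and independent. Here CPM on the linear scale was used and the 8 genes are correlated, so that rate is only a rough guide. Of the 64 groups of the 8 genes 7 were listed, each for its highest library, and whether this exceeds chance was not tested. In Ckb, BPA 2.5 library 4 stood at 878 CPM against 405 to 460 in the other libraries of its group, and BPA 25000 library 3 at 692 CPM against 367 to 419. In Inhbb, BPA 2.5 library 4 stood at 206 CPM against 37.9 to 51.4. In Vegfa, control library 1 stood at 136 CPM against 103 to 104, and EE2 0.05 library 4 at 156 CPM against 88.1 to 92.7. In Clu, BPA 25 library 3 stood at 288 CPM against 63.4 to 92.2, and BPA 2500 library 4 at 205 CPM against 131 to 135.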

How the results depend on the processing

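No call of the 8 genes changed under DESeq2's size factors or under other filters on low counts. In what follows, the count of all genes called by the same test is in parentheses. DESeq2's own test called 1 of the 8 genes at EE2 0.5 (442), 2 at BPA 25 (1080), 1 at BPA 25000 (770), 2 and 1 for the BPA and EE2 means (776 and 333) and 4 for any group difference (5767). Voom called 3 at EE2 0.05 (1375), 2 at EE2 0.5 (1221), 3 at BPA 2.5 (4103), 2 at BPA 25 (2650), 3 at BPA 250 (2991), 6 at BPA 25000 (4116), 4 for each mean (2532 and 1856), 2 for the trend (2703) and 7 for any group difference (9225). With only the groups compared, 3 were called at EE2 0.5 (301), 2 at BPA 25 (1195), 3 at BPA 250 (1204) and 3 for the EE2 mean (612). Without the 4 libraries that stood apart, the counts were 0 at BPA 2.5 (526), 2 at BPA 25 (1374), 0 at BPA 250 (884), 2 at BPA 25000 (751) and 2 for the BPA mean (629). Robust spread put S100g at an adjusted p of 0.0565 for any group difference. The cause of these shifts was not tested. Leaving out each library in turn gave 0 to 2 of the 8 genes at BPA 2.5 (594 to 1984), BPA 25 (0 to 805) and BPA 25000 (2 to 502). It gave 0 to 3 at BPA 250 (179 to 1630) and for the BPA mean (1 to 537), and 1 to 4 for any group difference (3478 to 5084). In the other comparisons it gave 0 of the 8, with 0 to 14 genes in all at EE2 0.05, 0 to 206 at EE2 0.5 and 0 at BPA 2500. There the totals were 0 to 152 for the EE2 mean, 69 to 1615 for the trend, 0 to 6 between EE2 doses and 24 to 224 between the BPA and EE2 means.

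Sign changes were seen only in log2 fold changes that did not pass. Voom gave 0.029 for Vegfa at BPA 2.5, 0.12 and 0.31 for Padi1 at BPA 25 and BPA 2500, and -0.11 for Clu at BPA 25. Without the 4 libraries that stood apart, Cdkn1a was -0.25 at BPA 2.5 and Vegfa -0.020 at BPA 250. On leaving out 1 library, 27 values changed sign, over 12 combinations of gene and group. The ranges were -0.39 to 0.76 for Padi1 and -0.29 to 0.051 for Vegfa at EE2 0.05, and -0.42 to 0.055 for Cdkn1a and -0.18 to 0.057 for Vegfa at EE2 0.5. They were -0.19 to 1.07 for Padi1 and -0.048 to 0.21 for Cdkn1a at BPA 2.5, and -0.999 to 0.29 for Padi1 and -0.41 to 0.56 for Clu at BPA 25. They were -1.02 to 0.0041 for Inhbb, -0.0047 to 0.23 for Vegfa and -0.21 to 0.20 for Clu at BPA 250, and -0.46 to 0.32 for Padi1 at BPA 2500. No paired analysis was possible because the labels give no replicate numbers. Depth limits Padi1, at 0 to 143 counts, more than the other 7 genes.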
